A study of Sus scrofa with 12 samples.

Results

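The genes described here are 10 transcription factors that specify or mark the spiny projection neurons of the striatum, BCL11B, FOXP1, FOXP2, EBF1, ISL1, MEIS2, IKZF1, ZNF503, SIX3 and RARB. They were taken by name, not by any measured value, from the authors' deposited table, where all 10 names were found and 0 were absent. They are 10 of the 25880 gene IDs in the count table, and all 10 passed the filter on low counts, so each was among the 14004 genes tested. RNA labelled as striatum came from 12 newborn piglets, with 1 library per animal. In the DHCA group (deep hypothermic circulatory arrest, n = 6), anaesthesia was induced with 4% isoflurane, the heart was reached by sternotomy, and the body was cooled on bypass to 18 °C. Circulation was then stopped for 30 min, the animals were rewarmed to 37 °C on bypass, and recovery lasted 6 h. Sham piglets (n = 6) received 4% isoflurane anaesthesia, and the labels give them no surgery, bypass or recovery time. Surgery, bypass, cooling, arrest and time under study therefore cannot be told apart, and the labels name no strain.

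Spiny projection neurons are inhibitory and make up most of the neurons of the striatum. Those of the direct pathway carry the D1 dopamine receptor and those of the indirect pathway carry the D2 receptor and enkephalin. Both arise from the lateral ganglionic eminence, where MEIS2, ZNF503 and SIX3 are already present in progenitors or young neurons. BCL11B, FOXP1 and FOXP2 then continue into mature neurons, EBF1 and ISL1 are tied to the direct pathway, SIX3 and IKZF1 to the indirect pathway, and RARB passes on the retinoic acid signal that striatal neurons need.

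Library totals ranged from 1377809 counts in Sham 5 to 12933536 in Sham 6. CPM values are counts scaled by library size after TMM normalisation, and 1 CPM stands for 1.502 counts in Sham 5 and 13.7 counts in Sham 6. The libraries Sham 1 (2515816 counts) and Sham 5 were the shallowest and had the smallest mitochondrial shares, 4.01% and 7.30%, against 10.6% to 26.3% in the other 10. The library labelled Sham 4 had low levels of most, but not all, defining transcripts of spiny neurons. The dopamine receptor gene DRD1 was at 1.14 CPM there and DRD2 at 0.284 CPM, while the direct pathway genes summed to 612 CPM, or 54.9% of the median of the other libraries, with the dynorphin gene PDYN at 79.6 CPM. SLC17A7, the vesicular glutamate transporter of cortical excitatory neurons, was at 838 CPM against 2.15 to 7.99 CPM in the other 11. The 18 spiny neuron effector genes (signalling proteins such as PPP1R1B and PDE10A) summed to 1163 CPM in Sham 4 and to 4683 to 9578 CPM elsewhere, and 15 of the 18 were lowest in Sham 4. The results of the 10 factors are therefore given with and without Sham 4.

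**Figure D1:**
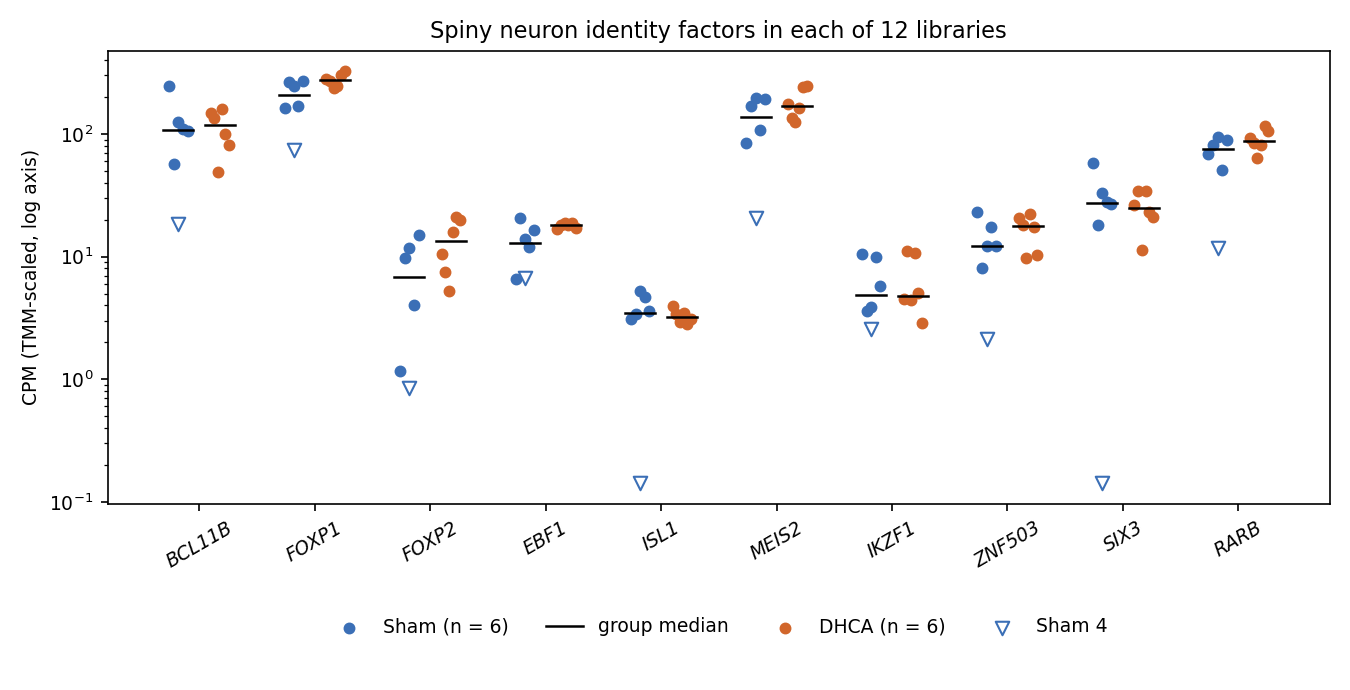
CPM of each factor on a log axis, with 1 point per library (blue for Sham, orange for DHCA, n = 6 each), a bar at the group median and an open triangle for Sham 4. The triangle is the lowest point for 9 of the 10 factors, and the remaining sham points overlap the DHCA points for all 10.

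In the library labelled Sham 4, 9 of the 10 factors had their lowest value of all 12 libraries, where 9.40% of the 14004 tested genes were lowest in that library. The exception was EBF1, at 6.68 CPM in Sham 4 and 6.59 CPM in Sham 1. SIX3 was nearly absent, with 1 count (0.142 CPM) against 11.2 to 57.8 CPM in the other 11 libraries. That is 0.528% of the median of the others (95% exact Poisson interval 0.0134% to 2.94%, which covers counting error only). ISL1 also had 1 count, or 4.17% of the median of the others (0.105% to 23.2%). FOXP2 had 6 counts, which is 8.06% (2.96% to 17.5%), a level close to the 1.16 CPM of Sham 1. In bulk tissue, fewer cells of a type and less RNA per cell cannot be told apart.

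The remaining factors were low in Sham 4 to unequal degrees. ZNF503 and MEIS2 were each at 12.3% of the median of the other libraries, RARB at 13.9% and BCL11B at 16.6%. FOXP1 kept 28.3% (25.9% to 30.8%), EBF1 39.1% (28.7% to 51.9%) and IKZF1 50.8% (30.1% to 80.3%). The intervals of FOXP1 and EBF1 do not reach those of MEIS2, RARB or BCL11B, so their smaller deficit exceeded counting error. The median over the 10 factors was 13.1%, against 99.4% over all tested genes. Other genes of the striatal lineage were less uniformly low, with a median of 52.7% over the 27 tested members of a list of 31, and relatives of the factors (a list of 21 with 12 tested, such as BCL11A and RARA) had a median of 132%.

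**Figure D2:**
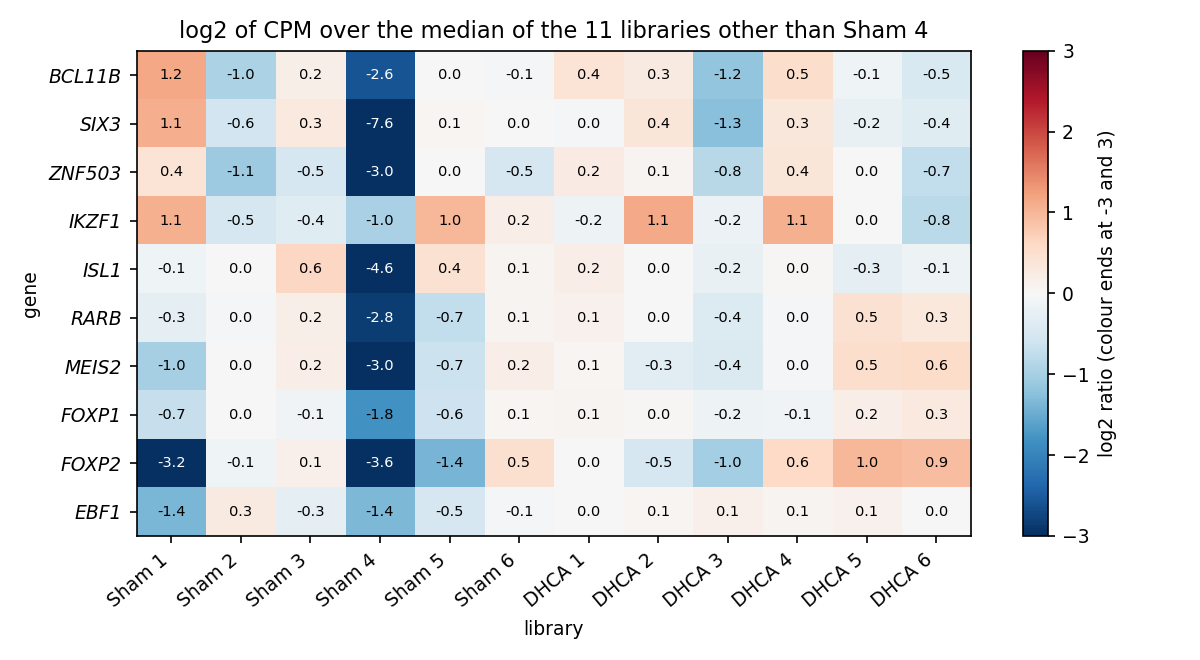
log2 of each factor's CPM over its median in the 11 libraries other than Sham 4, with libraries in columns, genes in rows and the colour scale ending at -3 and 3. Sham 4 is the darkest column, and in Sham 1 the factors BCL11B, SIX3, ZNF503 and IKZF1 are above their medians while RARB, MEIS2, FOXP1, FOXP2 and EBF1 are below.

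No difference between DHCA and sham piglets passed the threshold after adjustment in any of the 10 factors. With all 12 libraries, edgeR called 0 of 10 at an adjusted p of 0.05, where 0.186% of the tested genes were called, and 0 of 10 had an unadjusted p under 0.05, which 7.90% of tested genes had. Without Sham 4 it again called 0 of 10, where 0.0708% of 14134 tested genes were called, with 0 at an unadjusted p under 0.05 where 7.12% of those genes had one. Without Sham 1, 4 and 5 it called 0 of 10, where 0.00696% of 14363 tested genes were called. The DESeq2 Wald test called 0 of 10 (0 at an unadjusted p under 0.05, which at least 1410 genes had in that fit), where it called 1.24% of genes with an adjusted p. Limma-voom with sample quality weights called 0 of 10, where 1.48% of genes were called, and 1 factor, ZNF503, had an unadjusted p under 0.05. The groups overlapped for all 10 factors in both sets of libraries, where 0.993% of tested genes had groups that did not overlap with 12 libraries and 1.24% without Sham 4. With about 37% of genes changed 2-fold and 90% of genes changed 4-fold recovered in simulated data of this design, differences of 2-fold or less could pass unseen.

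The log2 fold changes (DHCA minus sham) of the factors ranged from -0.10 for SIX3 to 0.82 for FOXP2, with a median of 0.46 against -0.003 over all tested genes. They were positive for 8 of 10. Without Sham 4 all 10 became lower, their median was 0.22 against -0.001 over all tested genes, and 7 of 10 were positive. Each fold change from 12 libraries thus includes the low values of Sham 4 on the sham side.

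**Figure D3:**
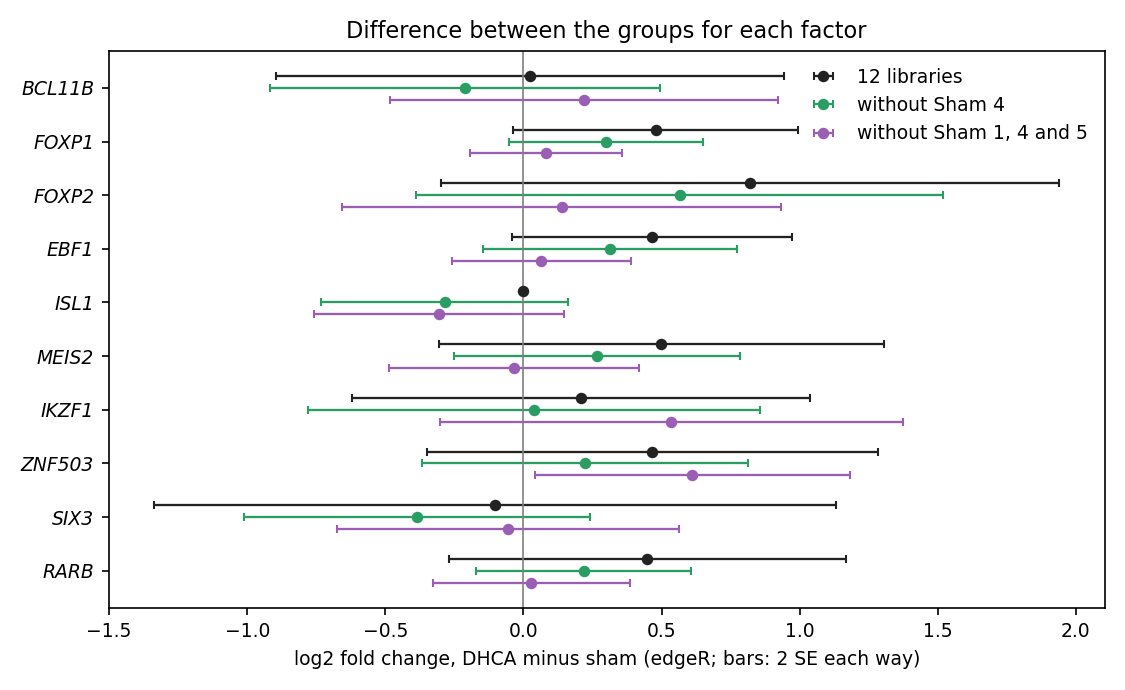
log2 fold change of each factor, DHCA minus sham, from edgeR with 12 libraries, without Sham 4 and without Sham 1, 4 and 5, with bars of 2 standard errors each way (none is drawn for ISL1 with 12 libraries, whose fold change was too near 0 to give one). Every bar crosses 0 except that of ZNF503 without the 3 sham libraries (adjusted p = 0.910), and without Sham 4 every point lies to the left of its 12-library point.

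BCL11B encodes a zinc finger protein, also called CTIP2, that is needed for spiny neurons to mature (ENSSSCG00000002507, chromosome 7, 120205008 to 120295737, minus strand, 5 annotated exon blocks). In the sham libraries 1 to 6 it was at 246, 56.9, 125, 18.3, 111 and 106 CPM. In the DHCA libraries 1 to 6 it was at 147, 134, 48.7, 160, 100.3 and 80.8 CPM. Sham 1 was far above all other libraries, and the DHCA values lay within the range of the sham values. The log2 fold change was 0.03 (SE 0.46, adjusted p = 0.996) with 12 libraries and -0.21 (SE 0.35, adjusted p = 0.870) without Sham 4, with limits of -0.92 and 0.50 at 2 standard errors. BCL11B was lowest after Sham 4 in DHCA 3 and Sham 2, which were also the libraries with the most oligodendrocyte lineage transcripts, 64997 and 33497 CPM summed over 9 markers against 4821 to 29095 CPM in the other 10. The next highest sums were those of Sham 5 (29095 CPM), Sham 1 (27133 CPM) and DHCA 2 (25883 CPM), where BCL11B was at 111, 246 and 134 CPM. DHCA 5 had the lowest sum, 4821 CPM, with BCL11B at 100.3 CPM. The part of oligodendrocyte lineage transcripts in the BCL11B values was not tested.

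FOXP1 and FOXP2 encode related forkhead proteins, the first found across spiny neurons and the second known for its part in vocal and motor learning. FOXP1 (ENSSSCG00000027675, chromosome 13, 52348094 to 52974267, minus strand, 25 exon blocks) was at 162, 263, 244, 74.3, 170 and 272 CPM in the sham libraries 1 to 6. The DHCA libraries 1 to 6 had 280.0, 271, 235, 244, 301 and 324 CPM. The sham libraries 2, 3 and 6 lay inside the DHCA range, and the libraries 1, 4 and 5 lay below it. The log2 fold change was 0.48 (SE 0.26, unadjusted p = 0.0840, adjusted p = 0.720), 0.30 (SE 0.18, adjusted p = 0.757) without Sham 4, and 0.08 (SE 0.14) without Sham 1, 4 and 5. Its limits in the last comparison were -0.19 and 0.36, which span less than a 2-fold change either way.

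FOXP2 (ENSSSCG00000016639, chromosome 18, 31339000 to 31458143, minus strand, 15 exon blocks) had the widest spread among the sham libraries other than Sham 4. It ran from 1.16 CPM (3 counts) in Sham 1 and 3.99 CPM (6 counts) in Sham 5 to 14.9 CPM in Sham 6. The DHCA libraries ranged from 5.22 CPM in DHCA 3 to 21.2 CPM in DHCA 5, with a median of 13.3 CPM. The groups overlapped, and the values of Sham 1 and Sham 5 rest on few counts. FOXP2 had the largest fold change of the 10 factors, 0.82 on the log2 scale (SE 0.56, adjusted p = 0.782), and 0.57 (SE 0.48, adjusted p = 0.797) without Sham 4. It was 0.14 (SE 0.40) without Sham 1, 4 and 5.

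EBF1 encodes a helix-loop-helix factor required for the development of direct pathway neurons (ENSSSCG00000017046, chromosome 16, 64359066 to 64867694, plus strand, 17 exon blocks). In the DHCA libraries it ranged only from 16.9 to 18.9 CPM (17.9 ± 0.840, SD, n = 6). In the sham libraries it ranged from 6.59 CPM in Sham 1 to 20.7 CPM in Sham 2 (12.7 ± 5.54 with n = 6, and 13.9 ± 5.23 with n = 5 without Sham 4). Of the 6 sham values, 5 lay below every DHCA value and 1, that of Sham 2, lay above all of them. The log2 fold change was 0.47 (SE 0.25, unadjusted p = 0.0876, adjusted p = 0.730), and 0.31 (SE 0.23, adjusted p = 0.783) without Sham 4. Without Sham 1, 4 and 5 it was 0.07 (SE 0.16). The difference in spread between the groups was seen in the values and was not tested.

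ISL1 encodes a LIM homeodomain protein found in newborn direct pathway neurons and in cholinergic interneurons (ENSSSCG00000016883, chromosome 16, 30963000 to 30973907, plus strand, 5 exon blocks). Apart from Sham 4 it varied little, at 3.10 to 5.26 CPM in the 5 sham libraries and 2.80 to 3.92 CPM in the 6 DHCA libraries. The means were 3.36 ± 1.78 CPM in sham and 3.27 ± 0.417 CPM in DHCA (SD, n = 6 each), a fitted ratio of 1.00 (adjusted p = 1.00 by edgeR). Without Sham 4 the log2 fold change was -0.28 (SE 0.22, adjusted p = 0.791), with limits of -0.73 and 0.16. Leaving out Sham 4 thus moved the ratio to 0.821. The cholinergic interneuron markers, such as CHAT, which makes acetylcholine, summed to 57.7 to 121 CPM outside Sham 4 and to 14.6 CPM in it. Over the 11 other libraries the correlation of ISL1 with that sum did not pass the threshold (r = -0.18, rho = -0.08, adjusted permutation p = 0.643 for r).

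SIX3 and IKZF1 are tied to indirect pathway neurons. SIX3, a homeodomain factor of the anterior brain (ENSSSCG00000039283, chromosome 3, 95520879 to 95525422, minus strand, 2 exon blocks), was at 57.8, 18.2, 33.2, 0.142, 27.96 and 26.9 CPM in the sham libraries 1 to 6. The DHCA libraries 1 to 6 had 26.3, 34.4, 11.2, 34.3, 23.1 and 21.0 CPM. Sham 1 was the highest and Sham 4 the lowest of all 12, and the other 10 overlapped. The log2 fold change was -0.10 (SE 0.62, adjusted p = 0.976) and, without Sham 4, -0.39 (SE 0.31, adjusted p = 0.793), with limits of -1.01 and 0.24.

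IKZF1 encodes the zinc finger protein Ikaros, best known from lymphocytes, which is also needed for enkephalin-expressing striatal neurons (ENSSSCG00000038345, chromosome 9, 136372205 to 136463765, plus strand, 11 exon blocks). By CPM it could be split into a high and a low set of libraries within both groups. Values of 9.99 to 11.14 CPM were found in Sham 1, Sham 5, DHCA 2 and DHCA 4, and values of 2.56 to 5.78 CPM in the other 8 libraries. Sham 1 had 27 counts (exact Poisson interval 6.90 to 15.2 CPM) and Sham 5 had 15 (5.59 to 16.5 CPM). Both intervals overlap that of Sham 6 in the low set (4.58 to 7.21 CPM). The split among the sham libraries was therefore not separated from counting error. The intervals of DHCA 2 (8.86 to 13.8 CPM) and DHCA 4 (8.41 to 13.2 CPM) lay above that of Sham 6. The 4 high libraries were 2 from each group, and the log2 fold change was 0.21 (SE 0.42, adjusted p = 0.909), or 0.04 (SE 0.41, adjusted p = 0.985) without Sham 4. The microglia markers, whose cells also express IKZF1, summed to 287 to 381 CPM in the 5 sham libraries and 195 to 339 CPM in DHCA, and lymphocyte markers to 2.75 to 20.2 CPM and 3.82 to 7.74 CPM. Across the 11 libraries IKZF1 did not follow the microglia sum past the threshold (r = 0.43, rho = 0.34, adjusted permutation p = 0.348 for r). The share of IKZF1 reads that came from microglia or blood cells was not tested.

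MEIS2 and ZNF503 mark the lineage early. MEIS2, a homeodomain partner of other factors (ENSSSCG00000004795, chromosome 1, 134013820 to 134223013, plus strand, 15 exon blocks), ranged from 84.1 CPM in Sham 1 to 194 CPM in Sham 3 outside Sham 4, and from 125 to 248 CPM in DHCA. The sham libraries 1 and 5 were below every DHCA library and the other sham values overlapped them. Its log2 fold change was 0.50 (SE 0.40, adjusted p = 0.811), 0.27 (SE 0.26, adjusted p = 0.803) without Sham 4, and -0.03 (SE 0.23) without Sham 1, 4 and 5.

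ZNF503, the zinc finger repressor also known as NOLZ1 (ENSSSCG00000010322, chromosome 14, 77924598 to 77928453, minus strand, 2 exon blocks), ranged from 8.07 to 22.9 CPM in the 5 sham libraries and from 9.68 to 22.4 CPM in DHCA. The highest value was that of Sham 1 and the groups overlapped. Its log2 fold change was 0.47 (SE 0.41, adjusted p = 0.812), and 0.22 (SE 0.29, adjusted p = 0.834) without Sham 4. When Sham 1, 4 and 5 were left out it was 0.61 (SE 0.29, unadjusted p = 0.0554, adjusted p = 0.910), where IKZF1 also had a larger value than before, 0.54 (SE 0.42). In limma-voom with sample quality weights, which gives less weight to libraries that stand apart, it was 0.76 (SE 0.28, unadjusted p = 0.0155, adjusted p = 0.224).

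RARB encodes retinoic acid receptor beta, whose loss is known to impair striatal neurons (ENSSSCG00000011212, chromosome 13, 12336370 to 12507805, plus strand, 7 exon blocks). Apart from 11.7 CPM in Sham 4, it lay between 50.6 and 94.2 CPM in sham and between 63.5 and 115 CPM in DHCA. The lowest of these were Sham 5, DHCA 3 and Sham 1, and the groups overlapped. The log2 fold change was 0.45 (SE 0.36, adjusted p = 0.811), 0.22 (SE 0.19, adjusted p = 0.799) without Sham 4 and 0.03 (SE 0.18) without Sham 1, 4 and 5.

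The other genes of the retinoid pathway had a median log2 fold change of 0.14. Of the 15 tested in a list of 19, 0 were called by edgeR over the whole table, where 0.186% of genes were, and at an unadjusted p under 0.05, which 7.90% of tested genes had, there was 1 in each direction. RDH10, which makes retinaldehyde from retinol as the step before retinoic acid, was at 7.39 to 16.5 CPM in sham and 18.5 to 53.5 CPM in DHCA. The groups did not overlap. Its log2 fold change was 1.45 (SE 0.28, adjusted p = 0.0626), or 1.32 (adjusted p = 0.137) without Sham 4. DESeq2 (adjusted p = 0.000429) and limma-voom with sample quality weights (adjusted p = 0.0308) called RDH10, and so did edgeR when DHCA 6 was left out (adjusted p = 0.0495). Without Sham 4, DESeq2 still called it (adjusted p = 0.00239) and limma-voom with those weights did not (adjusted p = 0.0507). CYP26B1, which breaks retinoic acid down, had a log2 fold change of -1.08 (SE 0.38, adjusted p = 0.423), or -0.87 (adjusted p = 0.685) without Sham 4. RARG, the receptor gamma counted among the relatives of the factors, was at 6.57 to 15.3 CPM in sham and 3.09 to 7.53 CPM in DHCA, and only Sham 2 was within the DHCA range. Its log2 fold change was -1.20 (SE 0.27, adjusted p = 0.116), or -1.22 (adjusted p = 0.194) without Sham 4. RARG was called by DESeq2 (adjusted p = 0.00464), by limma-voom with sample quality weights (adjusted p = 0.0170) and by edgeR without Sham 2 (adjusted p = 0.0448). Without Sham 4, DESeq2 (adjusted p = 0.0152) and limma-voom with those weights (adjusted p = 0.0249) still called RARG. Without Sham 1, 4 and 5, edgeR called neither RDH10 (1.31, adjusted p = 0.356) nor RARG (-0.96, adjusted p = 0.522). With a block by title number, edgeR also called neither (adjusted p = 0.283 for RDH10 and 0.205 for RARG). Apart from the fits named above, leaving out 1 library gave no edgeR call of either gene.

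The wider striatal lineage and effector genes gave a like picture. Of the 27 tested lineage transcription factors outside the 10, 0 were called, against 0.186% of all tested genes. At an unadjusted p under 0.05, which 7.90% of tested genes had, there was 1 of them, ZSWIM6 (log2 fold change 0.33, SE 0.14, adjusted p = 0.581, and 0.26 with adjusted p = 0.746 without Sham 4). Their median log2 fold change was 0.12 with 12 libraries and -0.02 without Sham 4. Of the 12 tested relatives of the factors, 0 were called and 2, RARG and SIX5, a relative of SIX3 (-1.05, SE 0.40, adjusted p = 0.501, and -1.09 with adjusted p = 0.609 without Sham 4), had negative fold changes at an unadjusted p under 0.05. Of the 18 spiny neuron effector genes, 0 were called and 0 had an unadjusted p under 0.05, and the number with a positive fold change was 10 of 18 with Sham 4 and 3 of 18 without it. The 8 direct pathway genes and the 6 tested indirect pathway genes had 0 called and 0 at an unadjusted p under 0.05, with medians without Sham 4 of 0.22 and -0.29.

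Levels of different factors were compared as CPM per kilobase of annotated exon, over the 11 libraries without Sham 4. MEIS2 had the highest median level, 53.4 (26.7 to 78.7), followed by BCL11B at 41.4 (18.3 to 92.2) and FOXP1 at 37.5 (23.2 to 46.2). MEIS2 was above BCL11B in 7 of 11 libraries and BCL11B above FOXP1 in 7 of 11, so the order of these 3 does not hold across libraries. FOXP1 was above RARB, at 14.8 (8.93 to 20.3), in all 11. RARB was above SIX3, at 9.95 (4.14 to 21.3), in 9 of 11, and SIX3 was above ZNF503 in all 11. ZNF503 at 5.54 (2.59 to 7.33), FOXP2 at 5.21 (0.573 to 10.4) and EBF1 at 4.27 (1.65 to 5.18) overlapped, with ZNF503 above FOXP2 in 5 of 11 and FOXP2 above EBF1 in 6 of 11.

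The least abundant factors per length were IKZF1 at 1.09 (0.622 to 2.40) and ISL1 at 0.809 (0.663 to 1.25). EBF1 was above IKZF1 in 10 of 11 libraries, and IKZF1 above ISL1 in 8 of 11. The order was the same with library sizes left unscaled. The annotated exon length is the only length used here, and an untranslated region that the annotation lacks could change a gene's value per length. The group medians of the levels, in the 5 sham libraries and in DHCA, were 53.4 and 53.9 for MEIS2, 3.91 and 5.73 for ZNF503, 4.79 and 6.54 for FOXP2, and 3.50 and 4.49 for EBF1.

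**Figure D4:**
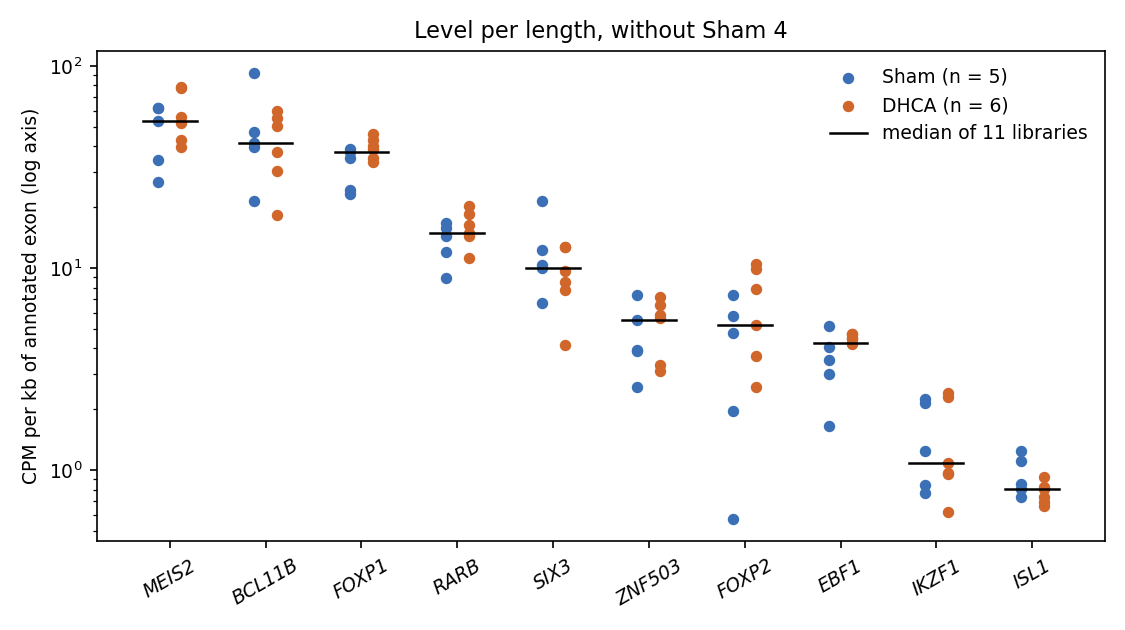
Level of each factor as CPM per kilobase of annotated exon on a log axis in the 11 libraries without Sham 4 (blue for 5 Sham, orange for 6 DHCA), with a bar at the median of the 11. MEIS2, BCL11B and FOXP1 lie together at the top with medians of 53.4, 41.4 and 37.5, and IKZF1 and ISL1 lie lowest at 1.09 and 0.809.

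Across the 11 libraries the factors did not vary as 1 set. BCL11B, SIX3 and ZNF503 were high and low in the same libraries, with a correlation on the log2 CPM scale of 0.95 between BCL11B and SIX3 and 0.87 between BCL11B and ZNF503. IKZF1 was closest to ZNF503 at 0.75. MEIS2, FOXP2, FOXP1, RARB and EBF1 formed another set, with 0.95 between MEIS2 and FOXP2, 0.90 between FOXP1 and MEIS2, 0.86 between RARB and MEIS2 and 0.80 between EBF1 and FOXP1. Between the sets, the coefficients of 19 of 20 pairs were negative, from -0.71 for SIX3 and EBF1 to 0.01 for BCL11B and RARB, with a median of -0.38. RARB was thus near 0 with BCL11B, SIX3 (-0.02) and ZNF503 (-0.09). ISL1 belonged to neither, its closest factor being SIX3 at 0.28. The sets were drawn from these same coefficients, so the signs between them describe the grouping and test nothing. These coefficients describe 11 libraries that also differ in depth, mitochondrial share and group, and Sham 1 stood at an end of most of them.

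The ratio of BCL11B to FOXP1 per length compares 1 factor of each set. It was 3.98 in Sham 1, 0.569 in Sham 2, 1.35 in Sham 3, 1.71 in Sham 5 and 1.02 in Sham 6. In the DHCA libraries 1 to 6 it was 1.38, 1.30, 0.544, 1.72, 0.873 and 0.655. The groups overlapped, the highest ratio was that of Sham 1, and the lowest were those of DHCA 3 and Sham 2. Sham 4, in which both factors were low, had a ratio of 0.647, inside that range. Sham 1 held the lowest value of 31.2% and the highest value of 27.2% of all tested genes, so its extreme values were not particular to these factors.

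BCL11B and SIX3 followed the summed CPM of the spiny neuron effector genes, while no factor of the other set passed the threshold. Of 13 pairs of a factor with a marker sum tested over the 11 libraries, 2 passed an adjusted p of 0.05 for Pearson's r, and 3 (with ZNF503) for Spearman's rho. For BCL11B, r was 0.93 and rho 0.93 (permutation p = 3e-05, adjusted p = 0.00039). Without DHCA 3 and Sham 2, the libraries farthest from the median sum, r was 0.86, and within the 6 DHCA libraries it was 0.95. For SIX3, r was 0.91 and rho 0.78 (permutation p = 0.00011, adjusted p = 0.000715), 0.81 without those libraries and 0.89 within DHCA. ZNF503 had r of 0.71 and rho of 0.84 (adjusted p = 0.0731 for r and 0.0144 for rho), with r of 0.47 without those libraries and 0.81 within DHCA. The 5 sham libraries are too few for a correlation within that group. The share of all genes that follow this sum as closely was not computed. The coefficients are therefore not shown to be particular to these factors or to spiny neurons. In a search over 11018 genes, genes on none of the spiny neuron lists came closer, PTPRN2 to BCL11B (r = 0.99) and MAP3K9 to SIX3 (r = 0.995).

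EBF1 had the opposite sign, with r of -0.60 and rho of -0.65 (permutation p = 0.0444, adjusted p = 0.144). FOXP1 (r = -0.33), FOXP2 (r = -0.28), MEIS2 (r = -0.28) and RARB (r = 0.003) did not pass the threshold either (adjusted permutation p from 0.471 to 0.993). IKZF1 (r = 0.55, adjusted permutation p = 0.218) and ISL1 (r = 0.38, adjusted permutation p = 0.414) lay between. Within the 6 DHCA libraries r was 0.89 for ISL1, near that of SIX3, and 0.54 for IKZF1. The pooled value of ISL1 includes Sham 1 with 8 counts and Sham 5 with 7. With Sham 4 included, r was 0.74 for FOXP1, 0.77 for MEIS2, 0.86 for RARB and 0.93 for ISL1, values that rested on Sham 4, since without Sham 4 and DHCA 3 they were -0.47, -0.56, -0.30 and 0.24. EBF1 was also set beside mural cell markers, because pericytes express it, with r of -0.51 (adjusted permutation p = 0.245) over the 11 libraries and 0.18 without Sham 1 and Sham 2.

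**Figure D5:**
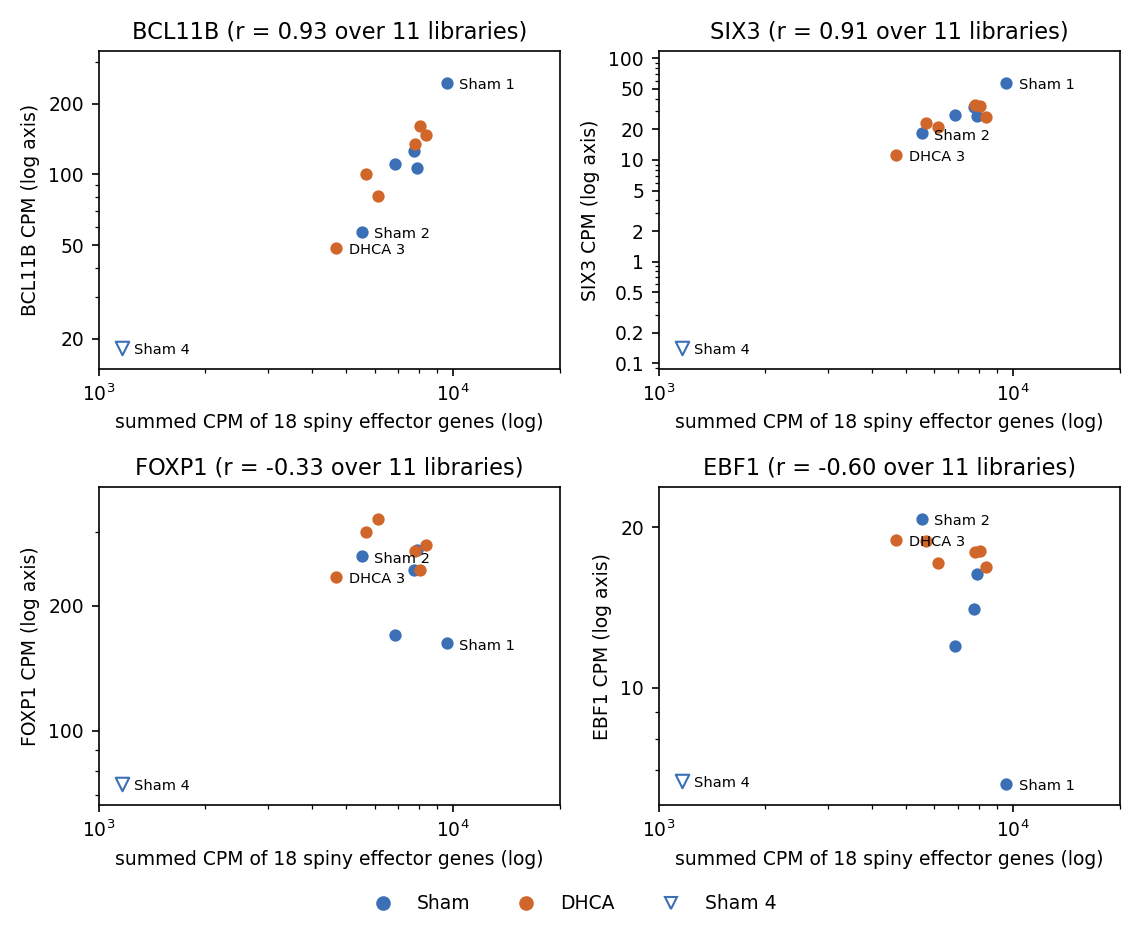
CPM of BCL11B, SIX3, FOXP1 and EBF1 against the summed CPM of 18 spiny neuron effector genes, both on log axes, with 1 point per library (blue for Sham, orange for DHCA, an open triangle for Sham 4). BCL11B and SIX3 climb with the sum over the 11 other libraries (r of 0.93 and 0.91), while FOXP1 and EBF1 do not (r of -0.33 and -0.60).

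Set against the effector sum of the same library, no factor passed the test between the groups. The sum itself differed by 0.29 on the log2 scale with 12 libraries and by -0.15 without Sham 4. The differences given here are between group means of log2 values and are not edgeR fold changes. They therefore differ from the fold changes above in estimator as well as in scaling. Each library has equal weight in them, and FOXP2 in Sham 1 and Sham 5 rests on 3 and 6 counts. Relative to the sum, FOXP2 was higher by 1.16 and, without Sham 4, by 1.13 (adjusted p = 0.418 and 0.333, exact 2-sided permutation test). FOXP1 was higher by 0.30 and 0.49, and EBF1 by 0.33 and 0.61 (smallest adjusted p over the 10 factors 0.418 and 0.333 in the same exact permutation test). BCL11B stayed at -0.004 and -0.001.

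The genes whose log2 CPM was most like each factor were sought among 11018 genes with a symbol and a mean of at least 5 CPM. Over the 11 libraries BCL11B was most like PTPRN2 (r = 0.99), MINK1 and NYAP1, and SIX3 most like MAP3K9 (r = 0.995), KAT2A and VGF. ZNF503 was most like RAB34 (r = 0.96), PLCH2 and AMZ1, and IKZF1 most like TRIM25 (r = 0.94), UBE2L6 and CSF1. In the other set, FOXP1 was most like SERTAD4 (r = 0.98), ATL1 and PLPPR4, FOXP2 most like FSTL5 (r = 0.98), RPS6KA6 and EPHA5, and MEIS2 most like CDH8 (r = 0.98) and CERS6. EBF1 was most like ZFP1 (r = 0.98), WDR61 and SRP72, and RARB most like SMARCA1 (r = 0.97), AK5 and BRI3BP. ISL1 had the loosest match, FAM120A (r = 0.91), followed by HS6ST1 and FBXO15.

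With Sham 4 included, the nearest genes of SIX3 became ADORA2A (r = 0.99), the adenosine receptor of indirect pathway neurons, the enkephalin gene PENK and NGEF. Those of BCL11B became CCDC88C (r = 0.99), the striatal phosphatase gene PTPN5 and EPHB6. MEIS2 was then closest to PDE7B (r = 0.98), MPPE1 and GAD2, and RARB to GAD2 (r = 0.98), SV2C and TLE4. These coefficients come from a search over many genes in few libraries, so they describe likeness only.

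The authors' deposited table also called 0 of the 10 factors, where 1.29% of its 17108 genes with an adjusted p were called. In the authors' deposited table the largest log2 fold change of a factor was that of FOXP2, 0.98 (standard error 0.57, adjusted p = 0.589). FOXP1 had 0.55 (standard error 0.22, unadjusted p = 0.0134, adjusted p = 0.284) and EBF1 0.52 (standard error 0.24, unadjusted p = 0.0279, adjusted p = 0.389) in the authors' deposited table. The share of all its genes at an unadjusted p under 0.05 was not computed. The smallest was that of ISL1, 0.07 (standard error 0.44, adjusted p = 0.971), in the authors' deposited table. Of the 3 factors with the lowest fold changes here, SIX3 had 0.12 and BCL11B 0.17 in the authors' deposited table, both with standard errors above 0.4.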

How the data were processed

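RNA labelled as striatum from 6 sham and 6 DHCA piglets was analysed, with groups from the sample titles. Per the file headers, featureCounts 1.5.1 produced the deposited raw counts, which sum reads over the exons of each Ensembl gene in Sscrofa11.1, and the command sets no option for strand. No annotated exon of the 10 factors overlaps one of another gene. Which aligner was used is not given in the sources. Of 18 library columns, 6 match no sample and were not used. The authors' deposited table holds log2 fold changes, standard errors, p-values and a score (the test statistic). Fold change and statistic have opposite signs in all 21223 genes, and the former was taken to mean DHCA minus sham, as it correlates at 0.967 with the values computed here over 14004 genes. The submitters' processing notes name featureCounts and DESeq2.

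Counts passed filterByExpr, TMM scaling and the quasi-likelihood F test of edgeR 4.0.16 in R 4.3.3 (group as the only term), with Benjamini-Hochberg adjustment over all tested genes and a threshold of 0.05. Standard errors come from the F statistic. Every fit used the whole table. Alternatives were DESeq2 1.42.0, limma-voom 3.58.1 with sample quality weights, other scalings and filters, a block by title number and leaving out libraries. Correlations used log2 CPM with a prior count of 2 and 100000 permutations, adjusted over 13 pairs. Marker sums were compared by exact 2-sided permutation in scipy. The edgeR steps were tested on simulated data in which 200 of 14004 genes were changed: 13855 passed the filter, 37% of genes changed 2-fold and 90% of genes changed 4-fold were recovered, and 2 unchanged genes were called. A library with 0 counts of a gene allows up to 0.220 CPM in the deepest and 2.00 CPM in the shallowest library.

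The factors, the 18 other gene lists, the doubted libraries and the rule for named genes were chosen with earlier results of these data known. Named genes are the 10 factors, 20 marker genes fixed by name, up to 3 genes per list with the smallest p at a mean of at least 1 CPM, and the 3 genes most like each factor, of which some are not reported here. No genome sequence was used here.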

Additional observations from a re-analysis of the deposited data

Results flagged for a closer look

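In groups of 6 libraries, the lowest or highest value was compared with the range of its group on the log2 scale by Dixon's criterion, for the 10 factors and 18 marker sums in both groups. Of 56 such groups, 7 held a library far from the others, where the criterion marks about 1 in 20 independent groups by chance. The 56 groups reuse the same libraries, and Sham 4 was already doubted from earlier results, so the count tests nothing. Sham 4 was the library marked in 6 of the 7. It had ISL1 at 0.142 CPM against 3.10 to 5.26 CPM in the other sham libraries, SIX3 at 0.142 CPM against 18.2 to 57.8 CPM, and RARB at 11.7 CPM against 50.6 to 94.2 CPM. Its sums were 1163 CPM for spiny neuron effector genes against 5518 to 9578 CPM, 107.2 CPM for indirect pathway genes against 904.7 to 2196 CPM, and 14.6 CPM for cholinergic interneuron markers against 62.1 to 80.3 CPM. The remaining one was the sum of pan-neuronal markers in DHCA 3, 3340 CPM against 4247 to 4680 CPM in the other DHCA libraries. Of the 10 factors, 7 (all but EBF1, ISL1 and IKZF1) also had their lowest DHCA value in that library.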

How the results depend on the processing

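Over 250 alternative values of the factors' fold changes (25 per factor), 0 reached an adjusted p of 0.05, and the smallest was 0.170, for ZNF503 with limma-voom weights without Sham 4. FOXP1, FOXP2, EBF1, ZNF503 and RARB had a positive fold change in all 25. BCL11B turned to -0.034 with upper-quartile scaling, -0.0033 without mitochondrial and haemoglobin genes, -0.20 with DESeq2 without Sham 4, -0.0035 relative to the effector sum and -0.0013 relative to it without Sham 4, and ranged from -0.21 to 0.42 when 1 library was left out. ISL1 turned to 0.046 with limma-voom weights, 0.0089 with no filter and 0.23 relative to the effector sum (-0.28 to 0.21 with 1 library left out). MEIS2 turned to -0.0051 with limma-voom weights without Sham 4 and -0.034 without Sham 1, 4 and 5. IKZF1 turned to -0.18 relative to the effector sum (-0.021 to 0.45 with 1 library left out). SIX3 turned to 0.40 with limma-voom weights and 0.62 relative to the effector sum (-0.39 to 0.25 with 1 library left out). The values relative to the effector sum and the fits with DESeq2 or limma-voom without Sham 4 were chosen after seeing the data. Those relative values are differences of mean log2 values and not edgeR fits. The parts of estimator and scaling in a turned sign were not tested. SIX3 and ISL1 each had 1 count in Sham 4. Without Sham 4 the relative values were -0.22 for SIX3, -0.12 for ISL1 and 0.06 for IKZF1.

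The labels state no pairing of animals by title number. Deviations of same-numbered libraries correlated between -0.39 and 0.34, and 0 of 6 were closest to their own number. These deviations also carry the low depth of Sham 1 and Sham 5 and the missing striatal transcripts of Sham 4. The check therefore cannot exclude pairing. With a replicate block, 8 genes and 0 factors were called, ISL1 was at 0.18 and SIX3 at 0.13. The 26 genes called by edgeR became 181 with DESeq2, 207 with limma-voom weights, 135 and 181 with those tools without Sham 4, and 1 without Sham 1, 4 and 5. With 1 library left out they numbered 9 to 51 (leaving out Sham 2 gave 51, Sham 3 or Sham 4 gave 10, Sham 5 gave 11, DHCA 1 gave 13, DHCA 2 gave 9, and DHCA 3 or DHCA 4 gave 12), and 0 factors were called. With all 12 libraries 5 correlations passed in place of 2, and the sign turned for the effector sum with FOXP1 (0.74), FOXP2 (0.50), EBF1 (0.40) and MEIS2 (0.77) and for cholinergic markers with ISL1 (0.88). Except where libraries were left out, the cause was not tested. FOXP2 in Sham 1 and Sham 5 rests on 3 and 6 counts.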

Other observations

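Markers of other cells were examined for movement with the groups. For 0 of the 18 lists did the summed CPM differ at an adjusted p of 0.05 in an exact 2-sided permutation test, with 12 libraries (smallest adjusted p = 0.234), without Sham 4 (0.273) or without Sham 1, 4 and 5 (0.214). Each of these smallest values was that of red blood cell markers, at 33.0 to 241 CPM in sham and 26.3 to 65.9 CPM in DHCA. Of the genes of all lists, edgeR called 0 with 12 libraries and 0 without Sham 4. DESeq2 called 5 with 12 libraries, among them the haemoglobin gene HBB (log2 fold change -1.63, adjusted p = 0.00485) and the oligodendrocyte lineage gene GPR17 (-0.95, adjusted p = 0.0189), and limma-voom with sample quality weights called 6, among them HBB (-2.25, adjusted p = 0.00176), the haem synthesis gene ALAS2 (-1.82, adjusted p = 0.0308) and the endothelial receptor gene TEK (-1.12, adjusted p = 0.0155). The calls of these 4 genes were also made by the same tools without Sham 4, where DESeq2 called 4 genes of the lists and limma-voom 6. At an unadjusted p under 0.05 by edgeR, which 7.90% of all tested genes had, 1 microglia marker had a positive and 2 had a negative fold change. CX3CR1, the fractalkine receptor of microglia, had a log2 fold change of -1.26 (SE 0.40, adjusted p = 0.365, and 0.0153 by limma-voom with sample quality weights), or -1.34 without Sham 4 (adjusted p = 0.409, and 0.0177 by limma-voom), and AIF1 one of -0.43 (SE 0.19, adjusted p = 0.588), or -0.51 without Sham 4 (adjusted p = 0.541). TYROBP, a microglial signalling adaptor, had 0.87 (SE 0.34, adjusted p = 0.501), or 0.76 without Sham 4 (adjusted p = 0.695), with 0.388 to 4.76 CPM in sham and 5.00 to 7.21 CPM in DHCA.

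All 6 cholinergic interneuron markers had a positive fold change, with a median of 0.48 and of 0.26 without Sham 4, and 1, the choline transporter gene SLC5A7, had an unadjusted p under 0.05 (0.48, SE 0.22, adjusted p = 0.628, and 0.39 with adjusted p = 0.757 without Sham 4). Of 10 tested cortical excitatory markers all 10 had a negative fold change, with a median of -0.54, and of -0.30 without Sham 4. At an unadjusted p under 0.05, which 626 genes with a negative and 480 with a positive fold change had among the 14004 tested (7.90%), there were 3 cortical, 2 pan-neuronal, 1 thalamic and midbrain, 1 other interneuron, 1 oligodendrocyte and 2 red blood cell markers, all with negative fold changes, and 1 endothelial marker with a positive and 4 with a negative one. There were 0 among mural, astrocyte and lymphocyte markers. In the library labelled Sham 4, cortical markers summed to 1463 CPM against 173 to 582 CPM elsewhere, and pan-neuronal markers to 7615 CPM against 3340 to 5121 CPM.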
